A study of Homo sapiens with 10 samples.

Results

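NR4A1, NR4A2 and NR4A3 are the 3 members of the NR4A group of orphan nuclear receptors, and their transcripts were followed across PC-3 cells exposed to luteolin, gefitinib or both drugs. The members were all non-control array probes named NR4A1, NR4A2 or NR4A3 in the scanner files, 5 probes of 41000 and 3 genes of 28090. NR4A2 was chosen on its signal in these arrays, for its large rise after drug treatment. Its levels and differences are therefore given below as a description without a test. NR4A1 and NR4A3 entered as its relatives and were tested, but they too were chosen with earlier results of these data known. PC-3 is an established human prostate cancer cell line that grows without androgen. Cells were harvested untreated at 0 h, or after 24 h with the vehicle DMSO, with 60 µM luteolin (a plant flavonoid), with 60 µM gefitinib (an inhibitor of the epidermal growth factor receptor kinase), or with both drugs at 60 µM each. All groups were the same cell line, and each held 2 arrays that the labels call biological replicates. RNA was hybridized in a single color to Agilent whole human genome arrays, 10 in all.

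The groups are named here by the sample labels. For the 6 drug-treated arrays the names of the scanner files carry other treatments: the arrays labelled luteolin have files named for gefitinib, those labelled gefitinib have files named for both drugs, and those labelled with both drugs have files named for luteolin. Under the file names, every value given below for the gefitinib group would belong to the cells given both drugs, every value for the luteolin group to gefitinib, and every value for the group given both drugs to luteolin. LEFTY1, a Nodal antagonist that the study followed up for its response to luteolin, was highest on the arrays whose files are named for luteolin and whose labels name both drugs. On the arrays labelled with both drugs it was at 94.3% and 119% of the array's 75th percentile, on those labelled gefitinib at 23.7% and 7.45%, on those labelled luteolin at 4.55% and 11.1%, and on the 4 control arrays it was not well above background. Against 0 h its log2 difference was 2.40 on the arrays labelled luteolin, 3.31 on those labelled gefitinib and 6.30 on those labelled with both drugs. By microarray the paper reports its largest LEFTY1 rise for luteolin, a smaller one for both drugs and the smallest for gefitinib. For this gene that order, and the approximate size of each reported fold, follow the file names and not the labels. The paper's quantitative RT-PCR repeated the rise with each drug alone but not that with both drugs. The labels are kept as the groups even so, and the exchange was not settled beyond this gene. Phrases such as "with gefitinib" refer to the label. The same DMSO and 0 h arrays serve as controls for all drug-treated groups.

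NR4A receptors act as transcription factors without an established physiological ligand, and their activity follows mainly from how much of the protein is made. They are immediate early genes: cAMP and protein kinase A acting through CREB, calcium acting through MEF2 factors and class IIa histone deacetylases, and growth factor signaling through MAP kinases all switch on their transcription within minutes to hours. The proteins bind as monomers to the NBRE element, and NR4A1 and NR4A2 can also pair with the retinoid X receptors, which NR4A3 does not. In tumor cells NR4A1 is known for both growth-promoting and, when it leaves the nucleus and meets BCL2, death-promoting actions.

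Each probe was 60 bases long, had 1 spot per array and was placed by the scanner files on hg18. NR4A1 had the probe A_23_P128230 at chr12:50739445-50739504 on the plus strand and the probe A_23_P309278, whose start lay 3515 bases upstream, at chr12:50735930-50735989. NR4A2 had the single probe A_23_P131208 at chr2:156889973-156890032 on the minus strand. NR4A3 had the probe A_23_P398566 at chr9:101668806-101668865 on the plus strand and the probe A_23_P306867 at chr9:101635572-101635631. The probes of a gene were annotated to different RefSeq transcripts of it, and whether each position is exonic, intronic or untranslated on hg18 was not analysed here. The brighter probes of NR4A1 and NR4A3 and the probe of NR4A2 were well above background on 10 of 10 arrays and represent their genes below. The other NR4A1 probe was well above background on 9 arrays, missing only luteolin replicate 2. The other NR4A3 probe was well above background on 0 arrays, with signals of 3.71 to 14.3, and no fold is given for it.

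The promoters of the tested members are shown because these genes were both raised in the group labelled gefitinib and because CREB acts through short sites near transcription starts. RefSeq promoter sequences (GRCh38.p14) were at hand for 2 of the 3 genes, NR4A1 with 2 starts and NR4A3 with 1. The 250 bases before each start are printed 5′ to 3′, with matches to any motif searched in capitals. The motifs, each searched on both strands, were the full CRE TGACGTCA, its core TGACG (which is contained in the full CRE), the NBRE AAAGGTCA, the GC box GGGCGG and the TATA box TATAAA.
NR4A3, chr9:99821635-99821884, plus strand: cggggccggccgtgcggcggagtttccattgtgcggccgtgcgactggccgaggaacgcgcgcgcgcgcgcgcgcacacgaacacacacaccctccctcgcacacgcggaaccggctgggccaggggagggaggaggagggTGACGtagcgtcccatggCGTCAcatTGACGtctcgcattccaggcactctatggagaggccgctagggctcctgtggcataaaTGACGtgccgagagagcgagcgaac
NR4A1 first start, chr12:52022582-52022831, plus strand: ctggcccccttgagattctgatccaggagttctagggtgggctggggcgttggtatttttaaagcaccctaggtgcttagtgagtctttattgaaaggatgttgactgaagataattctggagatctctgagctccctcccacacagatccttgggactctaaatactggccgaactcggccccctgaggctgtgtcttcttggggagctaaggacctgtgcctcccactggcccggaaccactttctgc
NR4A1 second start, chr12:52037465-52037714, plus strand: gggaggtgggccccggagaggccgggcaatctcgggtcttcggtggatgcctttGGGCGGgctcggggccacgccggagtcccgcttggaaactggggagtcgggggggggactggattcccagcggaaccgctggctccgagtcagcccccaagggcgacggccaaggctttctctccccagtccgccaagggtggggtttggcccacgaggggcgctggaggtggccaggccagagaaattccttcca
The NR4A3 window held 4 CRE cores, which began at positions -109, -83 and -25 from the start on the plus strand and at position -91 on the minus strand. At least 1 CRE core was found in 21.2% of all 35116 promoters searched over the same length, and 4 or more in 0.236%. The cut of 4 equals the count in the NR4A3 window, so the second share is a description. No motif searched was in the window of the first NR4A1 start, and that of the second held 1 GC box, a motif found in 42.6% of promoters. Any further NR4A1 start was not searched, so these windows do not describe the whole gene. The full CRE, the NBRE and the TATA box, present in 1.65%, 1.05% and 10.7% of promoters, were in none of the 3 windows. These matches describe letters and not sites in use.

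The arrays differed in brightness. The 75th percentile of the non-control signals was 1177 to 1402 on the 0 h and DMSO arrays, 1041 and 1173 on the luteolin arrays, 628.4 and 650.7 on the arrays labelled gefitinib and 539.8 and 864.6 on the arrays for both drugs, and each array was scaled to its own. After this scaling the median gene still stood 0.22 above DMSO on the log2 scale in the group labelled gefitinib and 0.16 above it in the group labelled with both drugs. The epithelial markers KRT8, KRT18, KRT19, EPCAM and CDH1 were well above background on all arrays (5 of 5 genes). Of 9 leukocyte, endothelial and fibroblast markers, PTPRC and DCN were well above background on 0 arrays, VWF on 1, COL1A2 on 2, COL1A1 and COL3A1 on 9, and CD3E, CD14 and PECAM1 on 10. Against DMSO, CDH1 was raised in all 3 drug-treated groups, by 1.29 with luteolin, 1.33 with gefitinib and 1.35 with both drugs. KRT8 was raised with gefitinib (1.07), as were CD3E (1.25) and CD14 (1.81), and COL1A1 was lowered (difference -2.22). With both drugs CD14 was raised (1.64) and COL1A1 lowered (-1.54), while KRT18 and KRT19 differed by -0.80 and -0.96 without being called. The level summed over the epithelial list, in multiples of the 75th percentile, was 143 to 152 at 0 h, 120 to 135 in DMSO, 118 to 133 with luteolin, 123 to 128 with gefitinib and 57.6 to 93 with both drugs. Summed over the other 9 markers it was 0.49 to 0.599, 0.454 to 0.461, 0.399 to 0.696, 0.397 to 0.481 and 0.469 to 0.608 in the same order. The part of these shifts in the NR4A results was not tested.

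NR4A2 (Nurr1), known for its role in dopamine neurons, was low in both control groups and, after scaling, higher in every drug-treated array. Its processed signal, in arbitrary units, was 43.0 and 32.1 at 0 h and 72.3 and 45.6 in DMSO. It was 237 and 571 in the group labelled luteolin, 477 and 317 in the group labelled gefitinib and 188 and 63.1 in the group labelled with both drugs. Before scaling, therefore, the second array labelled with both drugs lay between the DMSO arrays. After scaling it did not: NR4A2 was at 3.07% and 2.73% of the array's 75th percentile at 0 h, 5.36% and 3.55% in DMSO, 20.2% and 54.8% with luteolin, 73.3% and 50.4% with gefitinib and 21.8% and 11.7% with both drugs. All 6 drug-treated arrays stood above all 4 control arrays on this scale, a rise for which NR4A2 was chosen. Taken singly, the luteolin, gefitinib and both-drug arrays lay above the DMSO arrays for 41.5%, 49.2% and 45.4% of all genes. They lay above the 0 h arrays for 39.7%, 47.1% and 42.3%. The share for all groups at once was not computed.

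The mean scaled NR4A2 level, on the log2 scale, was -5.11 ± 0.12 (SD, n = 2) at 0 h, -4.52 ± 0.42 in DMSO, -2.65 ± 0.63 with both drugs, -1.59 ± 1.02 with luteolin and -0.72 ± 0.38 with gefitinib. In this order the DMSO arrays lay above the 0 h arrays, as for 23.8% of all genes, whereas the luteolin arrays overlapped those of the groups on either side. Over DMSO the difference was 2.93 (7.63-fold) with luteolin, 3.80 (13.9-fold) with gefitinib and 1.87 (3.66-fold) with both drugs. Over 0 h it was 3.52, 4.39 and 2.46 in the same order, and DMSO itself stood 0.59 above 0 h. The mean with both drugs differed by -1.06 from that with luteolin and by -1.93 from that with gefitinib. The luteolin arrays were far apart: without luteolin replicate 2 the difference between both drugs and luteolin was -0.34, and without replicate 1 it was -1.78, and that between luteolin and DMSO was 2.21 and 3.65. In such bulk RNA, more expressing cells and more RNA per cell cannot be told apart. Among 19718 genes ordered from the most positive log2 difference, NR4A2 had rank 41 between luteolin and DMSO, rank 68 between gefitinib and DMSO and rank 699 between both drugs and DMSO. Without scaling between arrays, an alternative added after the data were seen, the differences from DMSO were 2.68, 2.76 and 0.93 for luteolin, gefitinib and both drugs. With a normexp background correction, which adds an offset and compresses dim probes, they were 1.91, 2.80 and 1.31.

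**Figure D1:**
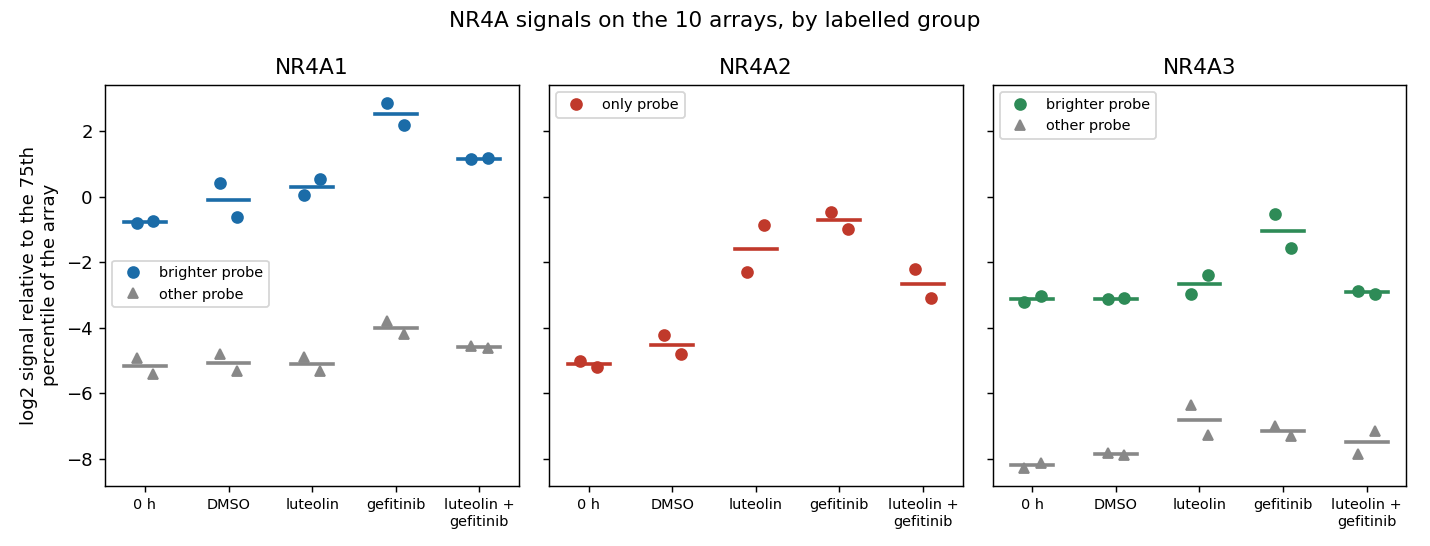
Log2 signal of every NR4A probe against its array's 75th percentile (y axis) in the 5 labelled groups (x axis). Points are arrays, replicate 1 on the left and replicate 2 on the right, lines are group means, circles are the probe representing the gene, and triangles are the other probe. NR4A1 and NR4A3 were highest on the arrays labelled gefitinib. NR4A2, chosen for its rise, was higher on all 6 drug-treated arrays than on the 4 control arrays. Group by group, 41.5% to 49.2% of all genes lay above both DMSO arrays. The other NR4A3 probe was well above background on 0 arrays.

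NR4A1 (Nur77 or TR3), a receptor widely studied in cancer cells, rose in the group labelled gefitinib and less in the group labelled with both drugs. The signal of its brighter probe was 808 and 709 at 0 h, 1827 and 836 in DMSO, 1209 and 1506 with luteolin, 4738 and 2900 with gefitinib and 1914 and 1221 with both drugs. DMSO replicate 1 was the odd array among the controls, with more than the signal of either luteolin array. The scaled log2 level was -0.76 ± 0.04 (SD, n = 2) at 0 h, -0.09 ± 0.75 in DMSO, 0.29 ± 0.35 with luteolin, 1.16 ± 0.02 with both drugs and 2.54 ± 0.47 with gefitinib. Both arrays labelled gefitinib lay above both arrays of every other group. Over all genes this held for 47.1% against 0 h, 49.2% against DMSO, 45.1% against luteolin and 37.8% against both drugs. The share for all groups at once was not computed. The DMSO arrays lay on both sides of the luteolin mean.

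Against DMSO, NR4A1 was 2.63 ± 0.35 (SE) higher on the log2 scale in the group labelled gefitinib, which is 6.17-fold with a 95% interval of 3.52 to 10.8 (adjusted p = 0.000976). Of all genes tested, 15.6% were raised in this comparison and 14.3% were lowered. Without scaling the difference was 1.585 (adjusted p = 0.011). In the group labelled with both drugs NR4A1 was raised by 1.25 on the log2 scale, or 2.38-fold with an interval of 1.36 to 4.18 (adjusted p = 0.0244), where 12.1% of genes were raised and 7.69% lowered. This call was lost without DMSO replicate 2 (0.73, adjusted p = 0.15), without replicate 1 or 2 of the group labelled with both drugs (adjusted p = 0.0638 and 0.0943) and without scaling (0.31, adjusted p = 0.556). With luteolin the difference was 0.38 (interval -0.43 to 1.19, adjusted p = 0.478), and it turned to -0.15 without DMSO replicate 2 (adjusted p = 0.824), in a comparison where 7.22% of genes were raised and 6.17% lowered. Luteolin replicate 1 was 0.39 below DMSO replicate 1 on the slide they shared, and luteolin replicate 2 was 1.15 above DMSO replicate 2 on theirs.

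Against 0 h, the comparison made in the study, NR4A1 was raised by 3.30 with gefitinib (9.84-fold, adjusted p = 0.00034) and by 1.93 with both drugs (3.80-fold, adjusted p = 0.00517), with 29% and 19.8% of genes called in either direction. Without scaling the second of these was no longer called (1.01, adjusted p = 0.0666). With luteolin the difference of 1.05 did not pass (2.07-fold, interval 1.18 to 3.64, adjusted p = 0.0552) where 16.1% of genes did, and its adjusted p ranged from 0.00517 to 0.268 over the settings tried. It passed when either DMSO array (adjusted p = 0.0275) or either gefitinib array (adjusted p = 0.0486) was left out, with the difference itself unchanged. DMSO differed from 0 h by 0.67 (adjusted p = 0.908) in a comparison that called 0.0355% of genes. The only gefitinib array that shared a slide with a 0 h array was 3.00 above it, and the one that shared a slide with a DMSO array was 2.43 above it.

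The other NR4A1 probe was dim. Its signal was 46.3 and 27.8 at 0 h, 48.2 and 32.2 in DMSO, 39.4 and 26.1 with luteolin, 46.5 and 34.7 with gefitinib and 36.9 and 22.0 with both drugs, with no group standing apart before scaling. After scaling it was raised against DMSO by 1.07 with gefitinib (adjusted p = 0.0095), and by 0.48 with both drugs it did not pass (adjusted p = 0.169). The luteolin difference was -0.04 (adjusted p = 0.92), with the probe well above background on 1 of the 2 luteolin arrays. After scaling, the probes thus gave the gefitinib difference the same sign and different sizes. Before scaling, the dim probe's gefitinib and DMSO signals overlapped.

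NR4A3 (NOR1), the member best known from muscle and vessel wall, rose in the group labelled gefitinib. The signal of its brighter probe was 152 and 144 at 0 h, 155 and 149 in DMSO, 150.1 and 199 with luteolin, 457 and 213 with gefitinib and 118 and 69.7 with both drugs. The control arrays were close together, gefitinib replicate 1 stood far above the rest, and both arrays labelled with both drugs were dimmer than every control array before scaling. The scaled log2 level was -3.12 ± 0.12 (SD, n = 2) at 0 h, -3.11 ± 0.01 in DMSO, -2.92 ± 0.05 with both drugs, -2.68 ± 0.41 with luteolin and -1.04 ± 0.75 with gefitinib.

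NR4A3 was raised with gefitinib by 2.08 ± 0.33 (SE) against DMSO on the log2 scale, which is 4.22-fold with an interval of 2.51 to 7.10 (adjusted p = 0.00185), and by 2.08 against 0 h (4.24-fold, adjusted p = 0.00184). Without scaling these differences were 1.04 (adjusted p = 0.0491) and 1.08 (adjusted p = 0.0439). On the slide holding gefitinib replicate 1 the difference from DMSO was 2.61, and gefitinib replicate 2 stood 1.64 above the 0 h array of its slide. With luteolin the difference from DMSO was 0.44 (interval -0.31 to 1.19, adjusted p = 0.373) and that from 0 h was also 0.44 (adjusted p = 0.347). With both drugs the difference from DMSO was 0.20 (interval -0.55 to 0.95, adjusted p = 0.649) after scaling and -0.75 (adjusted p = 0.133) without it, so its direction depended on the scaling. DMSO and 0 h differed by 0.01 (interval -0.74 to 0.76, adjusted p = 1), with a sign that turned without 0 h replicate 1 (-0.079) or DMSO replicate 2 (-0.0016). The one-sample test of the study's methods, run on the same values, passed neither gene with gefitinib against DMSO at 0.05, even before adjustment.

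Between the drug-treated groups, the group labelled gefitinib was the highest for NR4A1 and NR4A3. NR4A1 was lower with luteolin than with gefitinib by 2.25 on the log2 scale (difference -2.25, adjusted p = 0.0011), and NR4A3 by 1.64 (difference -1.64, adjusted p = 0.00325), where 36.6% of genes differed in either direction. The group labelled with both drugs was below the group labelled gefitinib for NR4A1 and NR4A3, where 27% of genes were called. The difference was -1.37 for NR4A1 (adjusted p = 0.0135) and -1.88 for NR4A3 (adjusted p = 0.00222). Under the file names these differences would set luteolin below both drugs. Both drugs would then be the highest group for NR4A1 and NR4A3. Against the group labelled luteolin, NR4A1 was 0.87 higher in the group labelled with both drugs (interval 0.06 to 1.68, adjusted p = 0.0782). NR4A3 differed by -0.24 (interval -0.99 to 0.51, adjusted p = 0.576), turning to 0.052 without luteolin replicate 2. Neither gene passed where 21% of genes did. In order of level, the neighbours that differed past the threshold were both drugs and gefitinib for NR4A1, and luteolin and gefitinib for NR4A3. The call for NR4A3 between luteolin and gefitinib was lost without scaling (-0.85, adjusted p = 0.0995). NR4A1 between both drugs and gefitinib was no longer called without gefitinib replicate 1 (-1.04, adjusted p = 0.0782) or without replicate 1 of the group labelled with both drugs (-1.36, adjusted p = 0.0573).

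**Figure D2:**
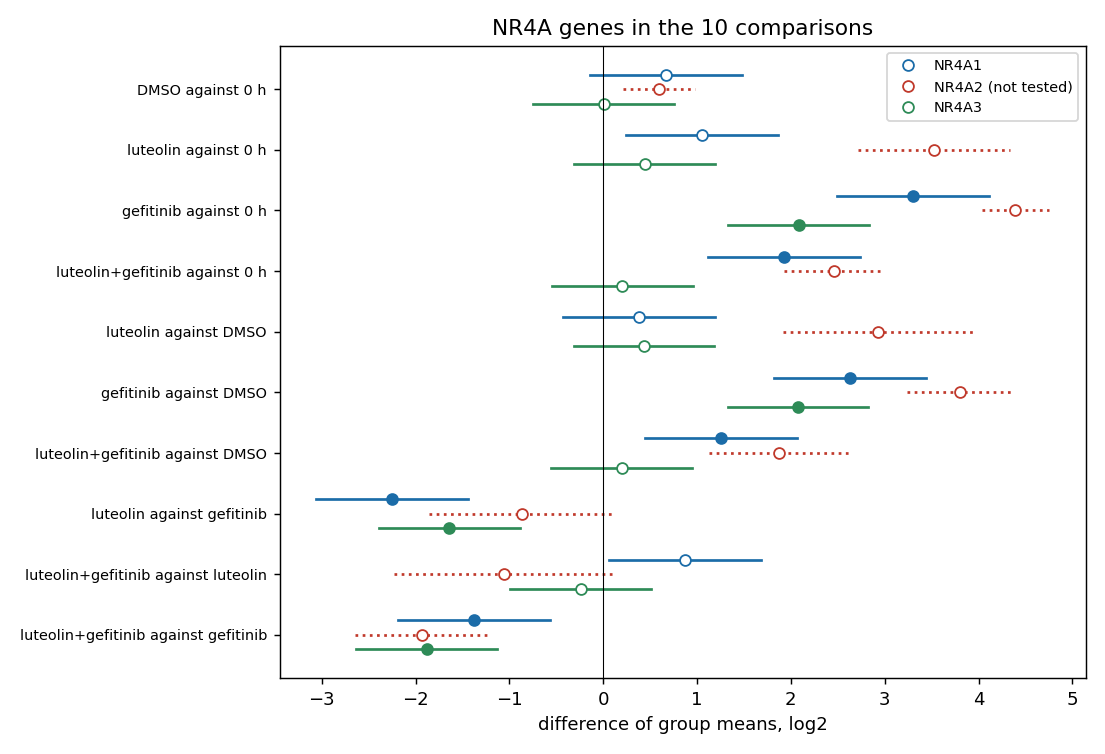
Difference of the mean log2 levels (x axis) of NR4A1, NR4A2 and NR4A3 in the 10 comparisons (y axis), each the first group minus the second. Solid lines are 95% intervals of the limma fit, filled circles passed an adjusted p of 0.05 and a log2 size of 1, and dotted lines for NR4A2, which was not tested, span the lowest and highest difference between single arrays. The group labelled gefitinib stood above DMSO by 2.63 for NR4A1, by 2.08 for NR4A3 and by 3.80 for NR4A2, which was chosen for its rise. Both arrays of this group lay above both DMSO arrays for 49.2% of all genes. NR4A3 with both drugs stood near 0.

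Over the 10 arrays, which share the groups, the scaling and the cell line, the pattern of NR4A1 correlated with that of NR4A2 at r = 0.835 and with that of NR4A3 at r = 0.853, and NR4A2 with NR4A3 at r = 0.776 (Pearson, log2 scale, n = 10 arrays, as a description). Of 5394 genes that had a log2 range of at least 2 and passed the background test on both arrays in 2 or more groups, 57 correlated with NR4A1 above 0.9, 21 with NR4A2 and 7 with NR4A3. The genes most like NR4A1 were FGF18, a fibroblast growth factor (r = 0.961), IRX3, a homeobox factor (r = 0.961), RRAD, a small GTPase of the RGK family (r = 0.957), the matrix protein gene MATN4 (r = 0.950) and the unnamed transcript THC2657593 (r = 0.944). With gefitinib FGF18 stood 5.35 above DMSO on the log2 scale, RRAD 3.96 and IRX3 1.82. In DMSO FGF18 was dim, at 2.96% and 1.88% of the 75th percentile, though well above background on both arrays. THC2657593 was not well above background in DMSO and was at least 18.3-fold higher with gefitinib.

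The genes most like NR4A2 were RASD1, a Ras-related G protein (r = 0.981), NFIL3, a bZIP repressor (r = 0.978), JUNB, an AP-1 subunit (r = 0.965), the chemokine gene CXCL2 (r = 0.950) and ARID3B (r = 0.944). As with NR4A2, each stood above DMSO in all 3 drug-treated groups: RASD1 by 2.93 with luteolin, 3.39 with gefitinib and 1.32 with both drugs, and JUNB by 1.77, 1.99 and 1.23. The genes most like NR4A3 were RPS6KL1 (r = 0.949), RCAN1, a calcineurin regulator (r = 0.939), GEM, another RGK family GTPase (r = 0.927), RAP1GAP (r = 0.925) and LIMS3 (r = 0.920). RAP1GAP and LIMS3 were dim. RAP1GAP was well above background on only 1 luteolin array and 1 array labelled with both drugs, and LIMS3 on only 1 array labelled with both drugs. With gefitinib RCAN1 stood 1.83 above DMSO and GEM 3.85, whereas with both drugs RCAN1 differed by -0.01 and GEM by 1.40. These genes were picked for the likeness, so their differences are a description.

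**Figure D3:**
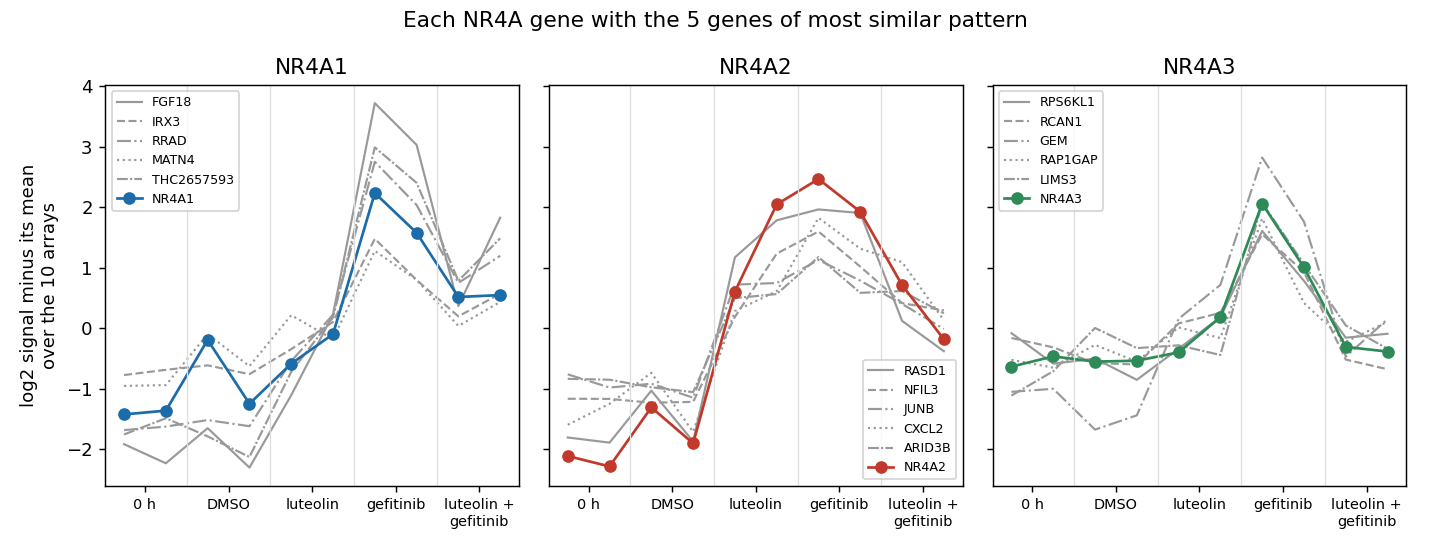
Log2 signal minus its mean over the 10 arrays (y axis) for each NR4A gene (colored, with a point for each array) and the 5 genes most correlated with it (grey lines), with the arrays in the order of the groups (x axis) and replicate 1 left of replicate 2. The NR4A1 and NR4A3 sets peaked on the arrays labelled gefitinib, and NR4A2 and its set were also high on the luteolin arrays.

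The wider pathway was read from 5 lists with 106 genes, 77 of them tested. These lists were drawn up with earlier results of these data known, so their counts and shares are not independent of the data. Of the genes listed as responsive to CREB, 14 of 18 were tested. Against DMSO, 3 were raised and 1 lowered with luteolin, 6 raised and 3 lowered with gefitinib, and 6 raised and 0 lowered with both drugs, and the median difference was 0.36, 0.95 and 0.81 beside 0.08, 0.22 and 0.16 over all genes. As shares of the genes tested, 21.4%, 42.9% and 42.9% were raised and 7.14%, 21.4% and 0% lowered, where all genes gave 7.22%, 15.6% and 12.1% raised and 6.17%, 14.3% and 7.69% lowered. JUNB was raised in all 3 groups (adjusted p = 0.00113 with luteolin, 0.000305 with gefitinib and 0.00367 with both drugs). ARC, which encodes a synaptic immediate early protein, was raised by 5.55 with gefitinib (adjusted p = 5.75e-05) and by 2.15 with both drugs (adjusted p = 0.00309) and differed by -0.09 with luteolin (adjusted p = 0.876). FOS, the AP-1 partner of JUNB, was raised by 4.03 with gefitinib (adjusted p = 8e-04) and by 2.54 with both drugs (adjusted p = 0.00767). With luteolin FOS differed by -0.84 (adjusted p = 0.279) and was well above background on 1 array. Its mean scaled log2 level was -6.81 at 0 h, where 0 arrays were well above background, and -3.87 in DMSO. The lowered genes were EGR1 with luteolin (-3.07) and EGR2 (-1.71), IER2 (-1.33) and AREG (-1.31) with gefitinib. EGR1 and EGR2 were each well above background on 6 of 10 arrays.

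The upstream regulators comprise CREB and MEF2 factors, their coactivators, class IIa deacetylases, serum response factor and catalytic subunits of protein kinase A and calcineurin. Of these regulators 19 of 19 were tested, and 1, 2 and 0 were raised and 0, 2 and 1 lowered with luteolin, gefitinib and both drugs. The raised share of 5.26%, 10.5% and 0% lay below the 7.22%, 15.6% and 12.1% of all genes, as did the lowered share of 0%, 10.5% and 5.26% beside 6.17%, 14.3% and 7.69%. HDAC5, a class IIa deacetylase, rose by 1.53 with luteolin (adjusted p = 0.00141), SRF, the serum response factor, fell by 1.65 with gefitinib (adjusted p = 0.000305), and MEF2C, a calcium-responsive factor, fell by 1.17 with both drugs (adjusted p = 0.00305). Among the partners of NR4A proteins 9 of 10 were tested, and 0, 2 and 2 were raised and 0 lowered, a raised share of 22.2% with gefitinib and with both drugs beside 15.6% and 12.1% of all genes. BCL2 was raised by 1.60 with gefitinib (adjusted p = 0.00272) and by 1.13 with both drugs (adjusted p = 0.0149), FHL2, a LIM domain cofactor, was raised by 1.48 with gefitinib (adjusted p = 0.00389), and PIAS4, a SUMO ligase, was raised by 1.10 with both drugs (adjusted p = 0.00222).

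Of the genes reported as NR4A targets in other tissues, 8 of 17 were tested, 1, 4 and 1 of them raised and 2, 0 and 0 lowered in the same order of groups, with median differences of 0.28, 0.88 and 0.52 beside 0.08, 0.22 and 0.16 over all genes. The raised shares were 12.5%, 50% and 12.5%, of 8 genes, beside 7.22%, 15.6% and 12.1% of all genes, and 25% were lowered with luteolin beside 6.17%. PYGM, the muscle glycogen phosphorylase, was raised by 2.61 with gefitinib (adjusted p = 0.00862) and by 3.90 with both drugs (adjusted p = 0.0031), from a DMSO level that was well above background on 1 of 2 arrays. BIRC5, which encodes survivin, fell by 2.11 with luteolin (adjusted p = 0.000753), as did the cell cycle factor E2F1 by 1.85 (adjusted p = 0.00216), and E2F1 rose by 1.14 with gefitinib (adjusted p = 0.00728). Both are also genes of proliferating cells.

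Of 45 other nuclear receptors listed, 29 were tested, and 4 were raised and 1 lowered with luteolin, 4 raised and 5 lowered with gefitinib, and 1 raised and 3 lowered with both drugs, with medians of 0.29, 0.02 and 0.07. The raised shares of 13.8%, 13.8% and 3.45% stood beside 7.22%, 15.6% and 12.1% of all genes, and the lowered shares of 3.45%, 17.2% and 10.3% beside 6.17%, 14.3% and 7.69%. NR2F2 and NR2F1, the COUP-TF receptors, differed from DMSO by -1.78 (adjusted p = 0.00018) and -1.74 (adjusted p = 0.000625) with gefitinib, both lowered, and NR2F1 fell by 1.14 with both drugs (adjusted p = 0.00561). NR3C2, the mineralocorticoid receptor, fell by 2.25 with both drugs (adjusted p = 0.000965).

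**Figure D4:**
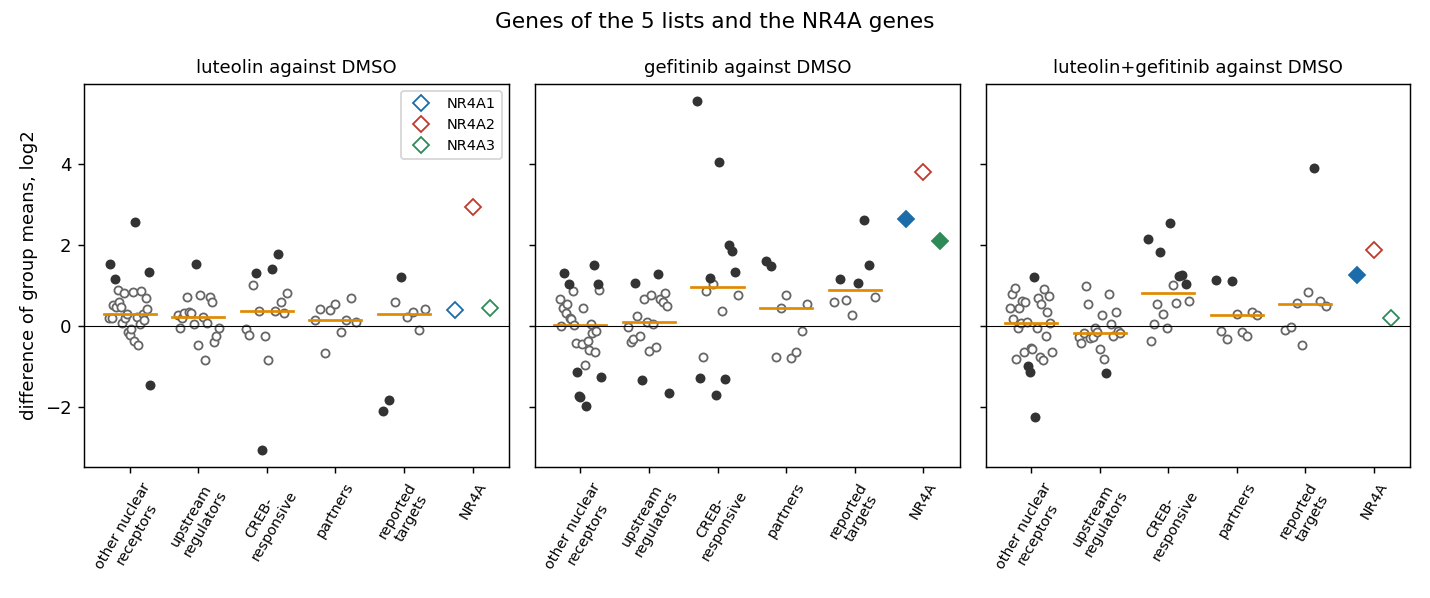
Difference of the mean log2 level from DMSO (y axis) for the tested genes of the 5 lists (circles) and for the NR4A genes (diamonds) in each drug-treated group (panels). Filled symbols passed an adjusted p of 0.05 and a log2 size of 1, orange lines are list medians, and NR4A2 was not tested. The medians of the other nuclear receptors were 0.29, 0.02 and 0.07, and the genes responsive to CREB included ARC at 5.55 and FOS at 4.03 in the group labelled gefitinib.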

How the data were processed

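The deposited intensity values are the processed signals that Agilent Feature Extraction (version 10.7.3.1 per the file headers) wrote for each array, on a linear scale after background subtraction and with no scaling between arrays. The series' own value table held the same intensities, and 0 of its columns were left unused. In R 4.3.3, with version 1.17.8 of the data.table package, control spots and outlier spots were left out, spots of a probe were averaged, and the log2 of the array's 75th percentile was subtracted from log2 signals. Probes were kept if both arrays of 1 or more groups marked them well above background (28776 of 41000, for 19718 genes), and a gene was represented by its brightest probe. Accessions of 23958 probes took their current symbols from RefSeq. A limma 3.58.1 model of the 5 groups (5 residual and 3.36 prior degrees of freedom) was fitted to all 10 arrays without covariates, with Benjamini-Hochberg adjustment over all probes kept, and calls needed an adjusted p under 0.05 and a log2 size of at least 1. The script was tested on simulated data. The 2 arrays per group limit the precision.

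The members, gene lists, markers and motifs were chosen with earlier results of these data known, and a marker list and a gene fixed with them are not reported here. The genes named were the members with every probe, list members called against DMSO in all 3 drug-treated groups or, with fewer than 3 such, the 3 with the smallest adjusted p in any of them, and the 5 genes most correlated with each member. The CREB-responsive genes called lowered were named as well. The methods' one-sample t-test, other scalings, background corrections, filters, blocks and probes, the treatments of the file names and the omission of each array were tried as alternatives. Slides, of which there were 3, held several groups each, and within-slide differences are given for the members.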

Additional observations from a re-analysis of the deposited data

How the results depend on the processing

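The replicate block changed no call of NR4A1 or NR4A3 and no count of list genes: NR4A1 with gefitinib was 2.63 above DMSO (adjusted p = 0.00175). The labels do not say what replicate numbers share, and deviations of same-numbered arrays correlated between groups at -0.098 to 0.293. The table of values gave the same results. With the treatments of the file names, differences from DMSO in the order luteolin, gefitinib, both drugs were 1.25, 0.38 and 2.63 for NR4A1, 1.87, 2.93 and 3.80 for NR4A2 and 0.20, 0.44 and 2.08 for NR4A3, and those from 0 h were 1.93, 1.05 and 3.30, 2.46, 3.52 and 4.39, and 0.20, 0.44 and 2.08. Between drugs (luteolin against gefitinib, then both drugs against luteolin and against gefitinib) they were 0.87, 1.37 and 2.25 for NR4A1, -1.06, 1.93 and 0.87 for NR4A2 and -0.24, 1.88 and 1.64 for NR4A3, and list genes were raised and lowered in 9 and 4 cases with gefitinib and 18 and 10 with both drugs. These are the same arrays under other names.

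With normexp, NR4A2 differed from 0 h by 2.10, 2.99 and 1.50 for luteolin, gefitinib and both drugs, from DMSO by 1.91, 2.80 and 1.31, and DMSO from 0 h by 0.19, NR4A3 between both drugs and luteolin turned to 0.050 (adjusted p = 0.89), and 5 list genes were raised with luteolin and 6 lowered with gefitinib. Quantile normalization left 11 raised with gefitinib. Without a minimum fold 20, 31 and 21 were raised and 8, 19 and 12 lowered, against 9, 18 and 10 raised and 4, 10 and 4 lowered with it. With the slide as a block, NR4A3 turned to -0.10 (both drugs) and -0.29 (DMSO) against 0 h. Without scaling, an alternative added after the data were seen, NR4A2 differed from 0 h by 3.39 with gefitinib and 1.55 with both drugs, from DMSO by 2.76 and 0.93, and between luteolin and gefitinib by -0.080. NR4A1 with both drugs was no longer called (1.01 against 0 h, 0.31 against DMSO), nor was NR4A3 between luteolin and gefitinib (-0.85), and NR4A3 with both drugs turned to -0.71 against 0 h and -0.75 against DMSO.

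NR4A1 with luteolin against 0 h (1.05) passed when only its groups were fitted (adjusted p = 0.0202) or only probes above background on all arrays were kept (adjusted p = 0.0333), and NR4A1 with both drugs against DMSO (1.25) did not pass with only its groups (adjusted p = 0.0517). On the other NR4A1 probe both drugs gave 0.57 against 0 h, 0.48 against DMSO and -0.59 against gefitinib, none of them called, and luteolin -0.044 against DMSO. With the median of the probes both drugs gave 0.86 against DMSO and -0.98 against gefitinib, below the minimum size. NR4A3 had no second probe well above background for these settings. The methods' one-sample test called 5650, 6591 and 3765 of 28776 probes against DMSO at an unadjusted p under 0.05 for luteolin, gefitinib and both drugs, and 0, 1 and 1 after adjustment, beside the calls of limma. It did not pass, unadjusted, NR4A1 or NR4A3 with gefitinib against 0 h (3.30 and 2.08), against DMSO (2.63 and 2.08) or below it with luteolin (-2.25 and -1.64). After adjustment it called none of these, nor NR4A1 with both drugs against 0 h (1.93), DMSO (1.25) or gefitinib (-1.37), nor NR4A3 against gefitinib (-1.88).

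Leaving out each array in turn moved NR4A1 with both drugs against DMSO between 0.73 and 1.78, its call being lost without DMSO replicate 2 or either array given both drugs, and with both drugs against gefitinib between -1.70 and -1.04. NR4A1 with luteolin ranged from -0.15 to 0.91 against DMSO and from 0.81 to 1.30 against 0 h, where it passed without either DMSO or either gefitinib array. NR4A3 ranged from -0.079 to 0.090 between DMSO and 0 h and from -0.53 to 0.052 between both drugs and luteolin. List genes raised with both drugs ranged from 5 to 15 and those lowered from 2 to 5, the lowest counts without DMSO replicate 2. A lone array was assumed to vary like the other groups. In the other cases the cause of a change was not tested. Signals near background limit the dim probes of NR4A1 and NR4A3.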
